A study of Mus musculus with 15 samples.

Results

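The actomyosin, focal adhesion and YAP/SRF genes described here are 53 mouse genes that encode integrins, the proteins of the adhesion plaque, actin and its contractile partners, Rhoa and the kinases Rock1 and Rock2, and the transcription factors and cofactors of the Hippo-YAP and SRF pathways. They were taken by symbol and Entrez Gene number from the count tables of 15 RNA-seq libraries, which list 26301 gene numbers. The choice was made by gene function, with earlier results of these data known. The 53 genes were divided by role into 11 YAP, TEAD and SRF regulators, 8 actins and actin cross-linkers, 12 contractile and thin-filament proteins, 7 focal adhesion plaque proteins, 12 integrin subunits and the 3 genes Rhoa, Rock1 and Rock2.

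All libraries came from 3T3-L1, a mouse preadipocyte line, on day 2 after adipocyte differentiation was induced with insulin, dexamethasone (DEX) and IBMX, with n = 3 per group. In the knockdown set, cells with a control retroviral vector (shEmpty, called sh-Empty here) were compared with cells with a retroviral shRNA against Jmjd1a (shJmjd1a, called sh-Jmjd1a). In the rescue set, all cells carried the shRNA against Jmjd1a and in addition expressed LacZ as the control, wild-type JMJD1A (WT) or an iron-binding deficient mutant of JMJD1A (Mut) from a retroviral vector. JMJD1A is a demethylase of lysine 9 of histone H3 and is encoded by the gene listed as Kdm3a. The labels do not say that replicates were separate infections or cultures, so the p-values measure the spread between these libraries, which may be technical. In these bulk libraries, fewer cells of a type and less RNA per cell cannot be told apart.

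Cells grip their surroundings through integrins, which are linked by plaque proteins such as talin, vinculin and zyxin to actin bundles on which non-muscle myosin II pulls. The kinases encoded by Rock1 and Rock2 switch that pull on. Tension and actin polymerization act on 2 families of transcription factors, since YAP and its relative TAZ (Wwtr1) enter the nucleus and bind TEAD factors, and the cofactors of the MRTF family leave monomeric actin and bind SRF at CArG boxes, many of which lie before cytoskeletal genes. In preadipocytes, spread cells with stress fibres round up and lose much of this apparatus as they become adipocytes, and high YAP or TAZ activity is known to hold adipocyte differentiation back.

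The promoter sequences of members with a CArG box, and that of Amotl2 with a TEAD core motif, are shown because these are the elements through which SRF and TEAD factors bind. Promoter windows, from 250 bases before to 50 bases after each start site, were read from RefSeq on GRCm38.p6, which is not the build of the counts (mm9). Of the 53 members, 41 had such a promoter, and those without one included Actb, Tagln, Tead1 and Tead4. A CArG box was present in 5 of the 41 genes (12.2%), against 1.76% of the 17816 genes of the count tables with a promoter. The TEAD core GGAATG, searched on both strands, was present in 14 of the 41 (34.1%), against 15.4%. Among 96 other genes of the same pathways with a promoter, 9 (9.38%) had a CArG box and 23 (24%) the TEAD core, so both motifs were not particular to the members. In Srf itself 2 CArG boxes stand 82 and 62 bases before the start site, and in Actg1, Cnn2, Vcl and Myl9 a box stands 90, 56, 227 and 161 bases before it. These matches are descriptions of the letters and not of binding. The windows below run 5′ to 3′ on the gene's strand, with the motif in capitals, at chr17:46556175-46556274 (minus strand) for Srf, chr11:120348516-120348615 (minus) for Actg1, chr10:79988514-79988599 (plus) for Cnn2, chr14:20929148-20929247 (plus) for Vcl, chr2:156775273-156775372 (plus) for Myl9 and chr9:102717709-102717803 (plus) for Amotl2, where the TEAD core is read on the opposite strand.
Srf: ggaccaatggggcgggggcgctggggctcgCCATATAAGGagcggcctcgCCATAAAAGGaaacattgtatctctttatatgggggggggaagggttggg
Actg1: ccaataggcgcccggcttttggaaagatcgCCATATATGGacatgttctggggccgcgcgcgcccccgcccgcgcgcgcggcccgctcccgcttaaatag
Cnn2: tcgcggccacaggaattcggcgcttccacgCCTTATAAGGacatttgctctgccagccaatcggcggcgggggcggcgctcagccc
Vcl: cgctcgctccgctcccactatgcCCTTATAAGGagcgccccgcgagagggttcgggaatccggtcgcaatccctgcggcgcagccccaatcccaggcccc
Myl9: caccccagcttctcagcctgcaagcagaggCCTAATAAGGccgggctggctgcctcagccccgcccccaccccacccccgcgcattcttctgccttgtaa
Amotl2: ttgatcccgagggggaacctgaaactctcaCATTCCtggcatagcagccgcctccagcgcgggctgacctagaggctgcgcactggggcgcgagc

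Levels are given as CPM, a gene's counts relative to the library's total, scaled by TMM size factors within each of the 2 sets, so levels are compared within a set. Total counts per library ranged from 11437058 to 25523148 with a median of 12916162. As a check of the labels, Kdm3a stood at 171, 174 and 185 CPM in sh-Empty cells and at 129, 128 and 138 CPM in sh-Jmjd1a cells. The groups did not overlap, and the log2 fold change was -0.42 ± 0.05 (SE; edgeR quasi-likelihood test, adjusted p = 2.91e-08). With LacZ the level was 116 to 122 CPM, with WT 1639 to 1768 CPM and with Mut 2103 to 2288 CPM, counts that include the introduced cDNA. The Mut libraries held more Kdm3a than the WT libraries (log2 fold change 0.38 ± 0.03, adjusted p = 3.94e-12), so the RNA of the mutant and of the wild-type construct was not at one level. Protein was not measured in these files.

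In cells with less Jmjd1a, most of the actomyosin and adhesion genes were expressed at a higher level. Of the 50 members that passed the filter on low counts in the knockdown set, 30 rose (60%) and 9 fell (18%) at an adjusted p under 0.05, while 11 did not pass. Over all 12272 genes tested, 22.3% rose and 23.9% fell. The median log2 fold change of the 50 members was 0.24, against -0.00315 over all genes. The changes were mostly moderate, with a median size of 0.34 among the 39 called members, and 5 members changed by more than 1 on the log2 scale (Itga1, Itga11, Zyx and Itgb3 upward and Actn3 downward). Many members are abundant, and abundant genes are called more easily. Among the 4477 tested genes whose average level reached 50 CPM, 25.0% rose and 36.6% fell, against 26 (70.3%) and 6 (16.2%) of the 37 members at that level. The 3 members below the filter were Actn2, with 0 counts in every library, Cnn1 and Myl9, so the sarcomeric α-actinin-2, the smooth muscle calponin and the smooth muscle myosin light chain were absent or nearly so. Without sh-Jmjd1a replicate 2, 5 members fell in place of 9.

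**Figure D1:**
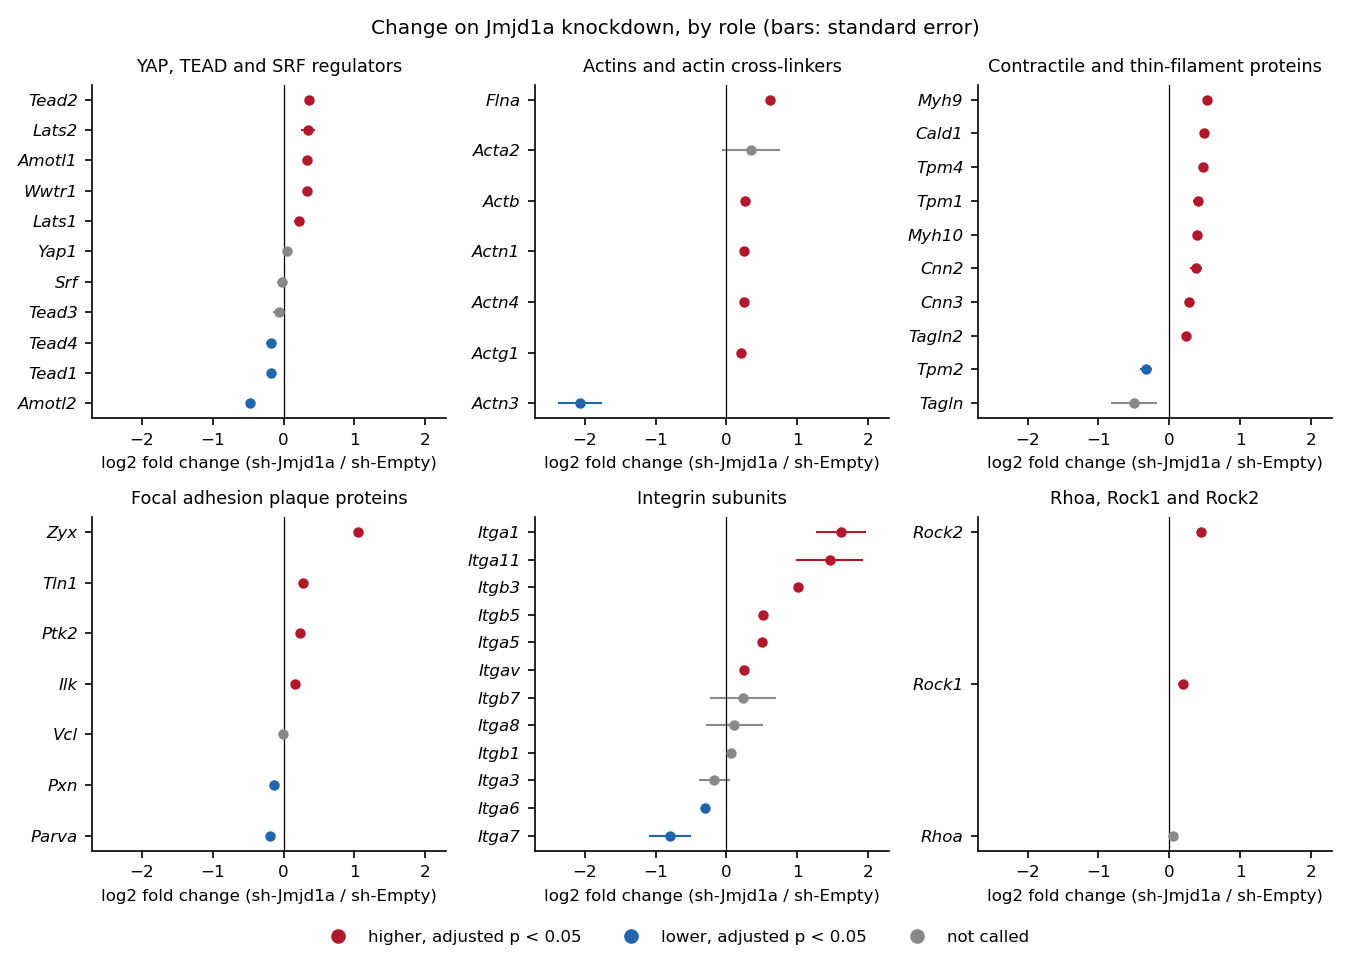
Log2 fold change of each tested member between sh-Jmjd1a and sh-Empty cells (x axis, log2 scale), in 6 panels by role. Points are the fitted values, bars the standard errors, and colours the call at an adjusted p under 0.05. Points to the right of 0 are the majority in each panel, and the 3 farthest out are Actn3 on the left and Itga1 and Itga11 on the right.

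With wild-type JMJD1A, part of the members stood at a lower level than with LacZ. Of the 49 members tested in the rescue set, 12 were lower with WT than with LacZ (24.5%, against 4.52% of 12557 genes) and 2 were higher (4.08%, against 4.98%). With Mut in place of WT, 14 were higher (28.6%, against 12.1%) and 4 lower (8.16%, against 11.7%). Mut against LacZ gave 3 higher (6.12%, against 4.78%) and 4 lower (8.16%, against 4.46%), shares closer to those of all genes. The members' median log2 fold changes were -0.06, 0.02 and -0.03 in the 3 comparisons, against -0.000143, -0.00118 and 0.000524 over all genes, so the typical member hardly moved and the calls came from a part of the list. Among genes of at least 50 CPM, 9.01% of 4430 were lower with WT than with LacZ, against 29.7% of 37 members, and 930 of 4430 were higher with Mut than with WT, against 13 of 37 members. These 3 comparisons share groups of libraries and are not independent of each other. The Mut against LacZ counts were fragile, since the number lower was 1 without LacZ replicate 1 or without LacZ replicate 3, 2 without Mut replicate 1 or without Mut replicate 2 and 0 without Mut replicate 3, and the number higher was 5 without LacZ replicate 1.

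**Figure D2:**
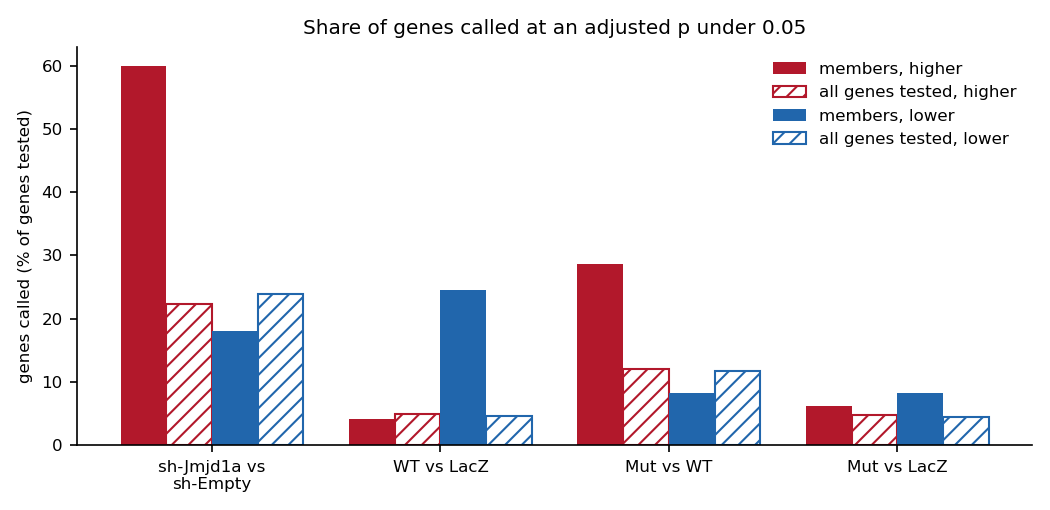
Percent of genes called at an adjusted p under 0.05 in each of the 4 comparisons (y axis), for the tested members (filled bars) and for all genes tested (hatched bars), with higher calls in red and lower calls in blue. The members' bars stand above those of all genes for higher calls on knockdown (60 against 22.3), lower calls with WT against LacZ (24.5 against 4.52) and higher calls with Mut against WT (28.6 against 12.1).

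Among the transcription factors and cofactors at the head of the pathway, Srf and Yap1 passed no test. Wwtr1, Tead2, Tead4 and Amotl2 were called in both sets. Srf, the serum response factor, averaged 53.1 CPM with sh-Empty (SD 1.89, n = 3) and 52.3 CPM with sh-Jmjd1a (SD 4.02), and Yap1 was at 168 to 173 and 171 to 182 CPM. The knockdown groups overlapped for both genes, and neither gene passed the test in any of the 4 comparisons. Wwtr1, which encodes TAZ, stood at 130, 125 and 120 CPM in sh-Empty cells and at 146, 158 and 164 CPM in sh-Jmjd1a cells. Its groups did not overlap, and the gene rose by a log2 fold change of 0.33 ± 0.05 (edgeR quasi-likelihood test, adjusted p = 4.71e-06). With the introduced proteins Wwtr1 stood at 170, 163 and 170 CPM with LacZ, 145, 145 and 146 CPM with WT and 149, 158 and 152 CPM with Mut. Both JMJD1A proteins gave lower levels than LacZ, WT by -0.21 ± 0.04 (adjusted p = 4.24e-04) and Mut by -0.14 ± 0.04 (adjusted p = 0.0437), while Mut against WT did not pass (0.08 ± 0.04, adjusted p = 0.219). The Mut against LacZ call ended when LacZ replicate 1 or 3, Mut replicate 1 or 3 or WT replicate 1 was left out (adjusted p up to 0.210).

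The 4 TEAD factors, which carry YAP and TAZ to DNA, did not move as one. Tead2 rose from 55.0, 61.8 and 56.7 CPM to 70.3, 79.0 and 73.2 CPM on knockdown (0.36 ± 0.06, adjusted p = 3.25e-05). With LacZ, WT and Mut it stood at 67.4 to 68.7, 55.5 to 62.1 and 72.9 to 77.5 CPM, without overlap between any of the 3 groups. WT was below LacZ (-0.21 ± 0.06, adjusted p = 0.0135) and below Mut (Mut against WT, 0.35 ± 0.06, adjusted p = 1.02e-05). Tead4 went the other way, at 70.0, 67.7 and 66.3 CPM in sh-Empty cells and 65.8, 54.3 and 60.6 CPM in sh-Jmjd1a cells. Its groups were separated by a gap of less than 1 CPM (-0.18 ± 0.07, adjusted p = 0.0324). Its rescue values were 59.2, 49.2 and 57.1 CPM with LacZ, 67.6, 57.1 and 63.1 CPM with WT and 44.9, 48.5 and 47.9 CPM with Mut, so that all Mut libraries lay below all others (Mut against WT, -0.41 ± 0.07, adjusted p = 1.11e-05). Tead4 was also lower with Mut than with LacZ (-0.23 ± 0.07, adjusted p = 0.0382). That call was lost with DESeq2 and without LacZ replicate 1 or 3 or any Mut replicate (up to 0.190). Tead1 fell slightly on knockdown (-0.18 ± 0.06, adjusted p = 0.0102) and Tead3 did not pass the test in any comparison. The smaller calls depended on single libraries. For Tead2, WT against LacZ no longer passed with LacZ replicate 3, WT replicate 1 or WT replicate 2 left out (adjusted p up to 0.0648). The knockdown call of Tead4 ended with sh-Jmjd1a replicate 2 or any 1 of the sh-Empty replicates 1, 2 and 3 left out (up to 0.247), and that of Tead1 with sh-Jmjd1a replicate 1 or 2 or sh-Empty replicate 1 left out (up to 0.0823).

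The angiomotin and LATS genes, whose products hold YAP and TAZ in the cytoplasm, also divided. Amotl2 stood at 137, 146 and 146 CPM in sh-Empty cells and at 106, 105 and 98.8 CPM in sh-Jmjd1a cells. It stood at 118, 122 and 119 CPM with LacZ, 146, 141 and 144 CPM with WT and 122, 108 and 122 CPM with Mut. The WT libraries lay above all LacZ and Mut libraries, and the Mut libraries overlapped those with LacZ. The log2 fold changes were -0.47 ± 0.05 on knockdown (adjusted p = 6.52e-09), 0.27 ± 0.05 for WT against LacZ (adjusted p = 7.36e-05), -0.30 ± 0.05 for Mut against WT (adjusted p = 6.87e-06) and -0.03 ± 0.05 for Mut against LacZ (adjusted p = 0.805). Its paralog Amotl1 rose on knockdown (0.34 ± 0.05, adjusted p = 2.09e-06) and passed no test in the rescue set. The kinase genes Lats1 and Lats2 rose on knockdown by 0.22 ± 0.07 and 0.35 ± 0.10 (adjusted p = 0.00731 and 0.00393), the former no longer passing without sh-Empty replicate 3 (adjusted p = 0.0911). Amotl2 and the α-actinin gene Actn3 are on the study's own list of genes that follow JMJD1A in these libraries, so their direction is not independent evidence.

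Among the actins and cross-linkers, 5 of 7 tested members rose on knockdown and 1 fell. The cytoplasmic actins were the most abundant members per length, Actb at 390 and Actg1 at 195 CPM per kb of exon in sh-Empty cells. Actb, β-actin, ranged from 1024 to 1078 CPM in sh-Empty and from 1203 to 1302 CPM in sh-Jmjd1a cells (0.27 ± 0.04, adjusted p = 1.05e-06). Actb was also higher with Mut than with WT (0.09 ± 0.03, adjusted p = 0.0328). This was lost without LacZ replicate 3, any Mut replicate or WT replicate 1 or 3 (up to 0.119). Actg1, γ-actin, stood at 520, 530 and 509 CPM and rose to 612, 610 and 585 CPM (0.21 ± 0.04, adjusted p = 3.12e-05). With the introduced proteins Actg1 was at 563 to 575 CPM with LacZ, 508 to 553 CPM with WT and 588 to 616 CPM with Mut, with WT the lowest and Mut the highest and no overlap between groups. WT was below LacZ by -0.11 ± 0.04 (adjusted p = 0.0356) and Mut above WT by 0.19 ± 0.04 (adjusted p = 5.51e-05). The former call ended when LacZ replicate 1, 2 or 3 or WT replicate 1 or 3 was left out (adjusted p up to 0.240). The coding sequences of the 2 actins are nearly identical, so how reads were divided between them is uncertain. Acta2, smooth muscle actin, was low in every group (0.690 to 2.73 CPM over the 15 libraries) and passed no test.

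The α-actinins, which tie actin filaments into bundles, included the largest fall of the list. Actn3, known from fast skeletal muscle fibres, was at 3.26, 4.05 and 4.01 CPM in sh-Empty cells and at 0.698, 0.887 and 1.09 CPM in sh-Jmjd1a cells, with a log2 fold change of -2.07 ± 0.31 (adjusted p = 2.93e-06). With LacZ it stood at 1.20, 0.566 and 1.20 CPM, with WT at 4.11, 3.60 and 2.53 CPM and with Mut at 0.157, 0.656 and 0.685 CPM. Every WT library lay above every LacZ library (1.69 ± 0.32, adjusted p = 1.89e-04) and above every Mut library (Mut against WT, -2.67 ± 0.40, adjusted p = 9.92e-07). These are low levels, and of 6 skeletal muscle markers Myod1, Myog, Myf5, Pax7 and Ckm had 0 counts in all libraries. The other marker, Tnnt3, was also low, at 0.778 to 1.42 CPM with LacZ, 3.54 to 4.22 CPM with WT and 0.219 to 0.705 CPM with Mut. These rescue groups of Tnnt3 did not overlap, while its sh-Empty (1.21 to 1.41 CPM) and sh-Jmjd1a (0.872 to 1.71 CPM) groups did. The abundant Actn1 and Actn4 moved the other way from Actn3 and by far less. Actn1 stood at 230, 230 and 217 CPM and rose to 268, 267 and 266 CPM (0.25 ± 0.04, adjusted p = 1.61e-05), and its rescue values were 261, 228 and 241 CPM with LacZ, 214, 206 and 232 CPM with WT and 246, 258 and 255 CPM with Mut. The WT and LacZ ranges overlapped (-0.16 ± 0.05, adjusted p = 0.0183, lost without LacZ replicate 1, WT replicate 1 or WT replicate 2, up to 0.173), while all Mut libraries exceeded all WT libraries (0.21 ± 0.05, adjusted p = 4.00e-04). Actn4 stood at 312, 312 and 324 CPM and rose to 377, 385 and 364 CPM (0.25 ± 0.04, adjusted p = 9.62e-06). Actn4 was at 354, 352 and 346 CPM with LacZ, 347, 343 and 358 CPM with WT and 382, 367 and 404 CPM with Mut, so that only the Mut libraries stood apart. Mut exceeded WT by 0.14 ± 0.04 (adjusted p = 0.00750, lost without Mut replicate 3, 0.0827) and LacZ by 0.13 ± 0.04 (adjusted p = 0.0227, lost without LacZ replicate 2 or 3 or Mut replicate 1 or 3, up to 0.177). Flna, filamin A, which links actin into networks, rose from 888 to 892 CPM to 1328 to 1432 CPM (0.62 ± 0.04, adjusted p = 3.98e-14), the largest rise in its role.

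Of the contractile and thin-filament genes, 8 of 10 tested rose and 1 fell. Myh9, the heavy chain of non-muscle myosin IIA, stood at 505, 529 and 507 CPM in sh-Empty cells and at 769, 725 and 733 CPM in sh-Jmjd1a cells (0.53 ± 0.04, adjusted p = 2.71e-12). In the rescue set it was at 775, 692 and 711 CPM with LacZ, 745, 666 and 748 CPM with WT and 784, 742 and 772 CPM with Mut. These ranges overlapped, and WT against LacZ was -0.01 ± 0.04 (adjusted p = 0.924). Its paralog Myh10, the IIB heavy chain, also rose on knockdown (0.39 ± 0.05, adjusted p = 8.42e-08) and passed no test in the rescue set.

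Cald1 and Cnn3 were called in both sets. Cald1, caldesmon, which binds actin and tropomyosin and damps myosin activity, stood at 670, 682 and 696 CPM in sh-Empty cells and at 979, 951 and 965 CPM in sh-Jmjd1a cells (0.50 ± 0.04, adjusted p = 2.50e-12). With LacZ it was at 949, 944 and 958 CPM, with WT at 825, 799 and 806 CPM and with Mut at 1023, 1016 and 1001 CPM. The 3 groups did not overlap. WT lay below LacZ (-0.23 ± 0.03, adjusted p = 6.37e-07), Mut lay above WT (0.32 ± 0.03, adjusted p = 6.75e-11), and Mut against LacZ did not pass (0.09 ± 0.03, adjusted p = 0.0647). Cnn3, the calponin found outside muscle, stood at 191, 186 and 200 CPM and rose to 244, 238 and 222 CPM (0.29 ± 0.05, adjusted p = 6.94e-06). It was at 239, 233 and 240 CPM with LacZ, 213, 214 and 203 CPM with WT and 267, 269 and 264 CPM with Mut. Again the groups were apart, with WT below LacZ (-0.18 ± 0.04, adjusted p = 0.00161) and Mut above both WT (0.35 ± 0.04, adjusted p = 2.31e-09) and LacZ (0.17 ± 0.04, adjusted p = 0.00312). The related Cnn2 rose on knockdown (0.38 ± 0.09, adjusted p = 6.87e-04) and was higher with Mut than with WT (0.31 ± 0.08, adjusted p = 0.00207).

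The tropomyosins, which coat actin filaments, divided by gene. Tpm1 and Tpm4 rose on knockdown by 0.41 ± 0.06 and 0.48 ± 0.04 (adjusted p = 7.06e-06 and 6.45e-11). Tpm4 was also higher with Mut than with WT (0.11 ± 0.03, adjusted p = 0.0221). That difference was lost without Mut replicate 1 or 2 or WT replicate 1 or 3 (up to 0.103). Tpm2 stood at 38.9, 40.0 and 39.9 CPM in sh-Empty cells and fell to 34.2, 29.2 and 31.4 CPM (-0.33 ± 0.08, adjusted p = 0.00100). With the introduced proteins Tpm2 was at 33.7, 36.4 and 37.5 CPM with LacZ, 31.2, 29.3 and 30.1 CPM with WT and 32.6, 34.3 and 32.8 CPM with Mut, with WT the lowest group (WT against LacZ, -0.25 ± 0.08, adjusted p = 0.0282). That call ended when LacZ replicate 2 or 3 or WT replicate 2 or 3 was left out (adjusted p up to 0.149). Tagln, transgelin, a known SRF target of smooth muscle, was at 1.17 to 3.26 CPM over the 15 libraries and passed no test, while its non-muscle relative Tagln2 rose on knockdown (0.24 ± 0.04, adjusted p = 3.60e-05).

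**Figure D3:**
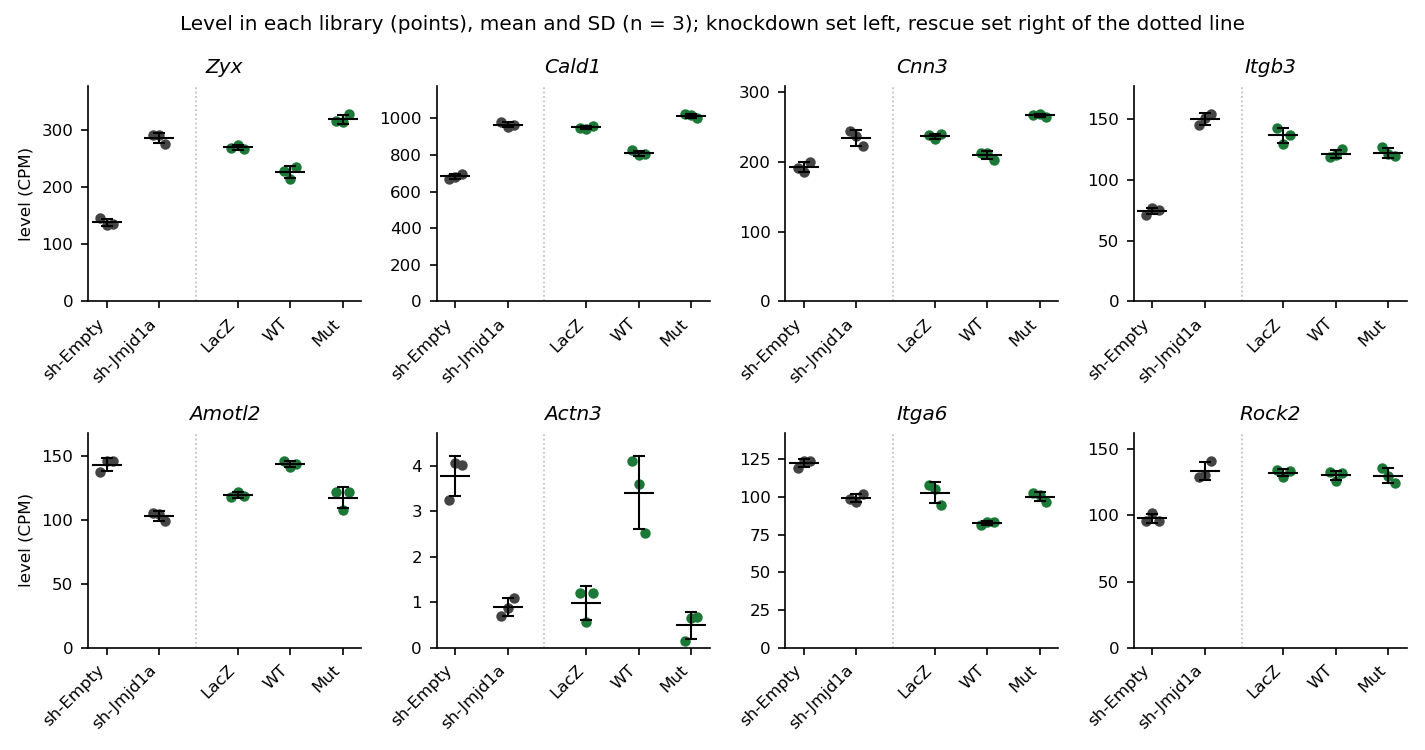
Level in CPM (y axis, from 0) of Zyx, Cald1, Cnn3, Itgb3, Amotl2, Actn3, Itga6 and Rock2 in each library (points), with the group mean and SD (bars, n = 3). In Zyx, Cald1 and Cnn3 the WT libraries are the lowest and the Mut libraries the highest of the rescue set, in Amotl2 and Actn3 the WT libraries are the highest, and in Rock2 the 3 rescue groups overlap.

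Of the 7 plaque proteins, 4 rose on knockdown and 2 fell, and Zyx had the largest called change of its role in each of the 4 comparisons. Zyx encodes zyxin, which gathers at adhesions and stress fibres under tension, and lies at chr6:42299827-42310145 (mm9, plus strand). It stood at 146, 134 and 134 CPM in sh-Empty cells and at 290, 290 and 275 CPM in sh-Jmjd1a cells. Its rescue values were 267, 274 and 266 CPM with LacZ, 228, 214 and 235 CPM with WT and 314, 313 and 327 CPM with Mut. All groups within a set were apart, and Zyx passed all 4 tests. Its log2 fold changes were 1.05 ± 0.05 on knockdown (edgeR quasi-likelihood test, adjusted p = 4.35e-17), -0.25 ± 0.04 for WT against LacZ (adjusted p = 1.24e-05), 0.49 ± 0.04 for Mut against WT (adjusted p = 2.20e-13) and 0.24 ± 0.04 for Mut against LacZ (adjusted p = 3.23e-05).

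The other plaque genes changed less. Tln1 (talin), Ptk2 (focal adhesion kinase) and Ilk (integrin-linked kinase) rose on knockdown by 0.27 ± 0.04, 0.23 ± 0.05 and 0.17 ± 0.05, and Parva (α-parvin) and Pxn (paxillin) fell by 0.20 and 0.14 on the log2 scale. Ilk was also higher with Mut than with WT (0.14 ± 0.05, adjusted p = 0.0401). This was lost with DESeq2 and without any Mut replicate or WT replicate 1 or 3 (up to 0.206). Pxn no longer passed when sh-Jmjd1a replicate 2 or sh-Empty replicate 1 or 2 was left out (adjusted p up to 0.102). Vcl, vinculin, did not pass on knockdown (192 to 205 CPM in all 6 libraries; -0.01 ± 0.04, adjusted p = 0.885). It was lower with WT (186 to 196 CPM) than with LacZ (214 to 227 CPM; -0.19 ± 0.04, adjusted p = 0.00137) and higher with Mut than with WT (0.16 ± 0.04, adjusted p = 0.00401). The strand setting of the counting is not given in the sources used here, and 39.9% of the exon bases of Vcl lie across from Ap3m1 and 76.8% of those of Ilk across from Taf10, so that reads of these pairs may be shared. Ap3m1 itself ranged from 39.9 to 54.4 CPM and passed no test.

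Among the integrin subunits, 6 of 12 tested members rose on knockdown and 2 fell. Itgb3, the β3 subunit of the vitronectin receptor, stood at 71.3, 76.8 and 74.8 CPM in sh-Empty cells and at 145, 151 and 154 CPM in sh-Jmjd1a cells (1.01 ± 0.05, adjusted p = 1.43e-15). With LacZ it was at 143, 130 and 137 CPM, with WT at 119, 120 and 125 CPM and with Mut at 127, 121 and 119 CPM. Here WT and Mut overlapped and both lay below LacZ, by -0.17 ± 0.05 (adjusted p = 0.0176) and -0.16 ± 0.05 (adjusted p = 0.0304). The first ended when LacZ replicate 1 or 3 or WT replicate 1 was left out (up to 0.102) and the second when LacZ replicate 1 or 3 or Mut replicate 2 or 3 was left out (up to 0.147). Its partner Itgav, αv, stood at 178, 184 and 180 CPM in sh-Empty cells, 224, 204 and 217 CPM in sh-Jmjd1a cells, 240, 249 and 241 CPM with LacZ, 221, 220 and 233 CPM with WT and 222, 221 and 204 CPM with Mut. Its Mut libraries, too, lay below those with LacZ. It rose on knockdown (0.25 ± 0.04, adjusted p = 3.23e-05) and was lower with Mut than with LacZ (-0.17 ± 0.04, adjusted p = 0.00552, lost without Mut replicate 3, 0.0655).

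Itga5, the α5 subunit of the fibronectin receptor, stood at 398, 385 and 386 CPM in sh-Empty cells and rose to 572, 561 and 533 CPM (0.51 ± 0.04, adjusted p = 1.18e-11). It was at 560, 533 and 539 CPM with LacZ, 482, 480 and 500 CPM with WT and 546, 501 and 531 CPM with Mut. WT was the lowest group (against LacZ, -0.16 ± 0.04, adjusted p = 0.00234), and Mut lay above it by 0.11 ± 0.04 (adjusted p = 0.0252, lost without Mut replicate 1 or 3 or WT replicate 1 or 2, up to 0.190). The common partner Itgb1, β1, was abundant (515 to 589 CPM) and passed no test. Itgb5, another partner of αv, rose on knockdown by 0.52 ± 0.05 (adjusted p = 2.71e-09) and passed no test in the rescue set.

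The laminin receptor subunits α6 and α7 fell on knockdown. Itga6, α6, stood at 119, 124 and 124 CPM in sh-Empty cells and at 98.5, 96.8 and 102 CPM in sh-Jmjd1a cells (-0.30 ± 0.05, adjusted p = 1.10e-05). With LacZ it was at 108, 105 and 94.7 CPM, with WT at 81.4, 83.5 and 83.6 CPM and with Mut at 102, 101 and 96.6 CPM. The WT libraries were the lowest, although knockdown had also lowered the gene (WT against LacZ, -0.31 ± 0.05, adjusted p = 3.24e-05, and Mut against WT, 0.27 ± 0.05, adjusted p = 1.24e-04). Itga7, α7, was low, at 2.82, 3.62 and 3.24 CPM in sh-Empty and 1.83, 0.968 and 2.72 CPM in sh-Jmjd1a cells (-0.80 ± 0.30, adjusted p = 0.0298). It was at 2.73, 2.83 and 1.98 CPM with LacZ, 3.82, 3.60 and 3.89 CPM with WT and 2.27, 1.75 and 1.37 CPM with Mut. WT was the highest group and did not overlap the others, with Mut against WT at -1.07 ± 0.26 (adjusted p = 0.00168) and WT against LacZ at 0.59 ± 0.23 (adjusted p = 0.111). The knockdown call ended when sh-Jmjd1a replicate 1 or 2 or sh-Empty replicate 2 or 3 was left out (up to 0.203).

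The collagen receptor subunits rose from a low level. Itga1, α1, stood at 0.705, 1.21 and 0.647 CPM in sh-Empty cells and at 2.70, 2.66 and 2.41 CPM in sh-Jmjd1a cells (1.62 ± 0.35, adjusted p = 3.38e-04), the largest rise of the list. Its rescue values ranged from 1.21 to 2.35 CPM, with overlap between all groups and no call. Itga11, α11, rose by 1.46 ± 0.47 (adjusted p = 0.0128), a call that ended when sh-Jmjd1a replicate 1 or sh-Empty replicate 1 or 3 was left out (up to 0.0558). Itga3, Itga8 and Itgb7 were also low, at most 4.32 CPM, and passed no test.

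Rock2 and Rock1 rose on knockdown while Rhoa did not pass the test. Rock2 stood at 95.4, 102 and 95.7 CPM in sh-Empty cells and at 129, 130 and 141 CPM in sh-Jmjd1a cells (0.45 ± 0.05, adjusted p = 3.53e-08). Its rescue values were 129 to 134 CPM with LacZ, 126 to 132 CPM with WT and 125 to 136 CPM with Mut, and the 3 groups overlapped (WT against LacZ, -0.02 ± 0.05, adjusted p = 0.853). Rock1 rose by 0.19 ± 0.06 (adjusted p = 0.0127, lost with sh-Jmjd1a replicate 1 or sh-Empty replicate 1 left out, up to 0.0640). Rhoa ranged from 224 to 257 CPM over the 15 libraries and passed no test.

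Set side by side, the changes on knockdown and in the rescue set, which share no library, showed the risen members in parts. Of the 30 members that rose on knockdown, 9 (30%, and 75% of the 12 members lower with WT) were lower with WT than with LacZ, namely Wwtr1, Tead2, Actg1, Actn1, Cnn3, Cald1, Zyx, Itga5 and Itgb3, and none was higher. Over all 2738 genes that rose on knockdown and were tested in both sets, 10.8% were lower with WT and 4.16% higher, and the former made up 52.4% of the 565 genes lower with WT. Of the same 30 members, 12 (40%, and 85.7% of 14) were higher with Mut than with WT, and none was lower. Of all risen genes 26.7% were higher with Mut and 7.93% lower, and the former made up 48.3% of the 1511 genes higher with Mut. Other risen members, among them Flna, Myh9, Myh10, Tpm1, Itgb5 and Rock2, passed no test in the rescue set. For Flna the difference of Mut from WT was near the threshold (0.12 ± 0.05, adjusted p = 0.0723) and passed in 9 of the alternatives, among them 1 fit of all libraries, a fit of only the 2 groups compared and the fits without LacZ replicate 1, LacZ replicate 2, LacZ replicate 3 or WT replicate 3. Mut against LacZ passed for Flna and Myh9 when LacZ replicate 1 was left out. Of the 9 members that fell on knockdown, Amotl2 and Actn3 were higher with WT than with LacZ, and Itga6 and Tpm2 were lower. Over all 2910 genes that fell on knockdown and were tested in both sets, 11.5% were higher with WT and 3.37% lower. Over all 53 members, 13 were called in no comparison (the 3 below the filter included), 18 in 1, 8 in 2, 12 in 3, and Zyx and Cnn3 in all 4.

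Across the 49 members tested in both sets, the log2 fold changes on knockdown and with WT against LacZ had a Pearson correlation of -0.67 and a Spearman correlation of -0.36, given as a description since genes are not independent replicates. Over the 12202 genes tested in both sets the values were -0.21 and -0.17. Actn3 lies far from the other members, and without it the values for 48 members were -0.40 and -0.32. For Mut against WT the members gave 0.70 and 0.43, and 0.45 and 0.39 without Actn3, against 0.29 and 0.27 over all genes.

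**Figure D4:**
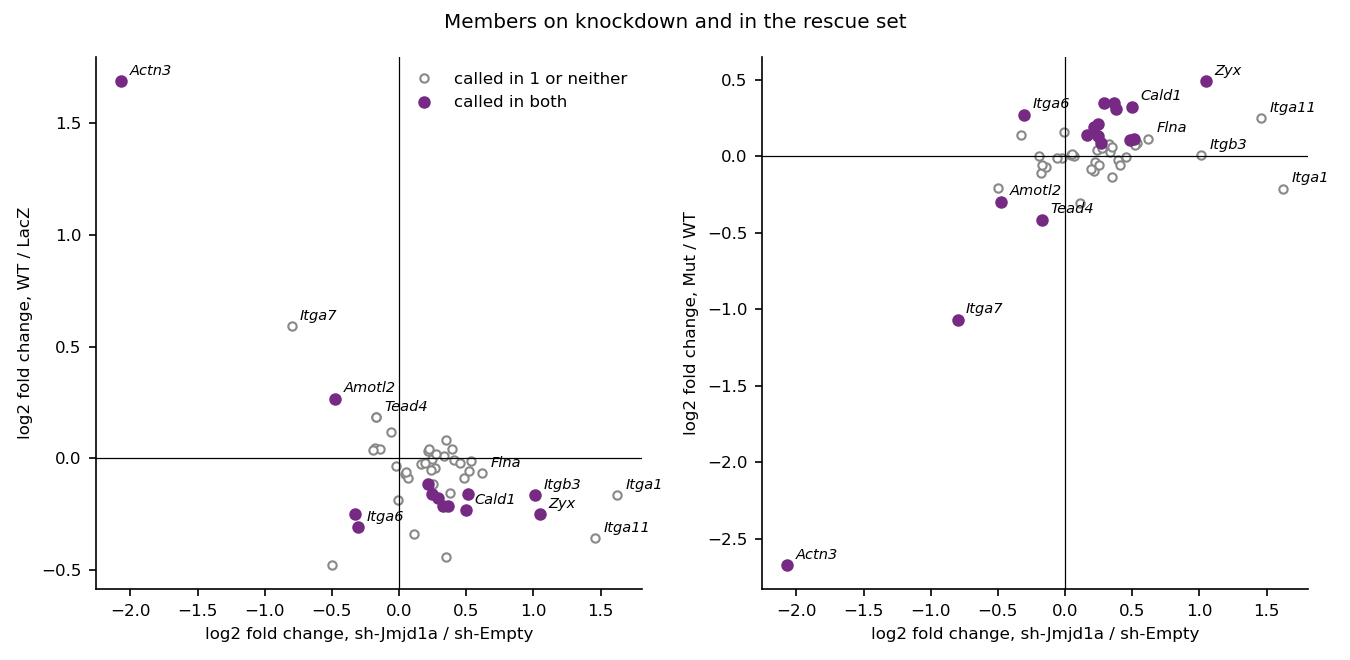
Log2 fold change of the 49 members tested in both sets on knockdown (x axis) against WT over LacZ (left) and Mut over WT (right). Filled points passed the test in both comparisons. Zyx and Cald1 lie below 0 on the left and above 0 on the right, Amotl2 and Actn3 lie on the opposite sides, and Itga6 lies below 0 on both axes of the left panel.

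Of 120 other genes of the same pathways, 107 were tested. On knockdown 44 rose and 23 fell (41.1% and 21.5%, median log2 fold change 0.12), with WT against LacZ 10 were higher and 12 lower, with Mut against WT 27 and 16, and with Mut against LacZ 14 and 8 (7 higher without Mut replicate 1, 8 higher without LacZ replicate 3, and 5 lower without Mut replicate 1 or without Mut replicate 3). Of all genes tested, 22.3% rose and 23.9% fell on knockdown, 4.98% were higher and 4.52% lower with WT against LacZ, 12.1% and 11.7% with Mut against WT, and 4.78% and 4.46% with Mut against LacZ. The share of pathway genes that fell on knockdown was thus near that of all genes, and the counts of the lists that follow are to be read against the same shares. Among 17 tested target genes of YAP and TEAD, 8 rose on knockdown and 2 fell, with WT 2 were higher and 5 lower than with LacZ, and with Mut 8 were higher than with WT and 0 lower. Myof, the membrane protein myoferlin, followed the course of Zyx at 233, 450, 395, 319 and 515 CPM on average in sh-Empty, sh-Jmjd1a, LacZ, WT and Mut cells (0.95 ± 0.04 on knockdown, -0.31 ± 0.04 for WT against LacZ, 0.69 ± 0.04 for Mut against WT). Foxf2 did so at a lower level (0.33 ± 0.09, -0.45 ± 0.10 and 0.67 ± 0.10). Ccn1, the matricellular protein often read as a YAP target, rose on knockdown (1.33 ± 0.07) but was higher with WT than with LacZ (0.20 ± 0.05, adjusted p = 0.0125, lost without LacZ replicate 1 or WT replicate 2, up to 0.0952) and higher still with Mut (Mut against LacZ, 0.77 ± 0.05). Tgfb2, a ligand of the TGF-β family, fell on knockdown (-1.24 ± 0.12) and was also lower with WT (-0.54 ± 0.15, lost without LacZ replicate 1 or WT replicate 1, adjusted p up to 0.114). Nuak2 was higher with Mut than with WT (0.73 ± 0.22, lost without Mut replicate 2 or WT replicate 2, adjusted p up to 0.0586). Ccn2, at 0 to 7 counts, could not be tested.

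The 18 genes of the Hippo pathway and TEAD cofactors gave 7 higher and 5 lower on knockdown. The FERM-domain gene Frmd6 rose on knockdown (0.19 ± 0.05), was lower with WT (-0.22 ± 0.04) and was higher with Mut than with WT (0.53 ± 0.04). Vgll4, whose product competes with YAP for TEAD factors, fell on knockdown (-0.18 ± 0.04) and was lower with WT (-0.31 ± 0.05) and higher with Mut than with WT (0.49 ± 0.05). Vgll3, a cofactor of TEAD factors, was higher on knockdown (0.52 ± 0.06) and also with WT (0.51 ± 0.05). Fat4, a giant cadherin, rose on knockdown (0.50 ± 0.08), the scaffold gene Wwc1 fell (-0.73 ± 0.19), and the kinase gene Taok1 was lower with Mut than with LacZ (-0.19 ± 0.05, lost without LacZ replicate 1 or Mut replicate 3, adjusted p up to 0.133).

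Among 15 tested cofactors and targets of the MRTF and SRF pathway, 9 rose on knockdown and 3 fell. The largest changes went in both directions, with Fhl1 (2.27 ± 0.36) and Filip1l (1.00 ± 0.08) upward and Lmod1 (-1.96 ± 0.31) and Mylk (-1.18 ± 0.07) downward. Fhl1 was low, at 0.441, 0.345 and 1.29 CPM in sh-Empty and 3.14, 3.63 and 4.20 CPM in sh-Jmjd1a cells, and passed no test in the rescue set. Mylk encodes myosin light chain kinase and stood at 155, 68.5, 90.5, 152 and 97.6 CPM on average in sh-Empty, sh-Jmjd1a, LacZ, WT and Mut cells, so its course was that of Amotl2 (WT against LacZ, 0.75 ± 0.07, and Mut against WT, -0.64 ± 0.07). Des, desmin, did not pass on knockdown (-0.28 ± 0.26, adjusted p = 0.413) and was higher with WT, at 15.4 CPM against 4.22 CPM with LacZ and 2.84 CPM with Mut (1.85 ± 0.15 and, for Mut against WT, -2.42 ± 0.17). The cofactor gene Mrtfa rose on knockdown (0.34 ± 0.06) and was higher with Mut than with LacZ (0.21 ± 0.06, adjusted p = 0.0276, lost without LacZ replicate 2 or 3 or Mut replicate 1 or 3, up to 0.192).

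The other focal adhesion proteins gave 10 higher and 6 lower of 26 on knockdown. Parvb, Nedd9 and Tns3 rose by 1.07 ± 0.12, 0.63 ± 0.07 and 0.61 ± 0.05. Tns1, tensin 1, did not pass on knockdown (0.06 ± 0.04) but was higher with WT (0.47 ± 0.04) and lower with Mut than with WT (-0.61 ± 0.04). Of 6 tested other integrin subunits, Itgb8 rose on knockdown (0.92 ± 0.37, adjusted p = 0.0432) and Itgb4 was higher with WT than with LacZ (1.20 ± 0.31, adjusted p = 0.00613). The Itgb8 call ended when sh-Jmjd1a replicate 1 or 2 or sh-Empty replicate 1 or 3 was left out (adjusted p up to 0.189), and also with DESeq2, with no filter, with the replicate block (adjusted p = 0.0557) and with thinned counts. That of Itgb4 ended when WT replicate 3 or LacZ replicate 2 was left out (adjusted p up to 0.103). Mylk is on the study's list of genes that follow JMJD1A in these libraries, and its direction is not independent evidence.

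Markers of adipocytes moved with the groups too. The summed level of 7 adipocyte markers was 5051 to 5150 CPM in sh-Empty cells and 2651 to 2796 CPM in sh-Jmjd1a cells, and 3362 to 3437, 3811 to 4167 and 2588 to 2699 CPM with LacZ, WT and Mut. The sum was lower on knockdown, and it was highest with WT and lowest with Mut in the rescue set, and no group overlapped another within its set. At least Pparg, Cebpa and Fabp4, among these 7, are on the study's list of genes that follow JMJD1A in these libraries. The course of the sum is therefore not independent evidence. The sum of 7 preadipocyte and fibroblast markers was 7842 to 8070 CPM in sh-Empty and 12663 to 13407 CPM in sh-Jmjd1a cells, and 14603 to 14861, 14017 to 14576 and 15589 to 16434 CPM with LacZ, WT and Mut. Not all of these 7 rose with the sum on knockdown. Dlk1 is on the study's list, which was drawn from genes lower on knockdown and restored by WT. The part of these adipocyte and preadipocyte markers in the members' changes was not tested. For smooth muscle 4 of 6 markers were tested in each set (Smtn, Lmod1, Des and Myh11), while Myocd and Synpo2 were at or near 0. The sum of the 6 was 40.1 to 44.1 CPM in sh-Empty and 55.3 to 57.7 CPM in sh-Jmjd1a cells, and 56.4 to 63.6, 63.4 to 70.5 and 56.1 to 70.2 CPM with LacZ, WT and Mut. The groups of the knockdown set did not overlap, and those of the rescue set did. Smtn, smoothelin, made up most of the sum, at 33.6 ± 1.81 and 51.0 ± 1.69 CPM (SD, n = 3) in sh-Empty and sh-Jmjd1a cells. Lmod1 went the other way, from 3.97 to 1.01 CPM. The part of this list in the members' changes was not tested either. For skeletal muscle 5 of 6 markers were at 0, and the sum came from Tnnt3 alone. That sum was 1.21 to 1.41 CPM in sh-Empty and 0.872 to 1.71 CPM in sh-Jmjd1a cells. With LacZ, WT and Mut it was 0.778 to 1.42, 3.54 to 4.22 and 0.219 to 0.705 CPM, without overlap. Markers of leukocytes, endothelium and epithelium summed to at most 4.05, 0.849 and 0.778 CPM.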

How the data were processed

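Per the labels and the study's methods, poly(A) RNA libraries were trimmed with fastp, aligned to mm9 with HISAT2 and counted with featureCounts, and the authors deposited raw counts per Entrez Gene number for each library, without normalization. Labels and methods name different NEBNext kits, of which that of the methods is directional, and the strand setting of the counting is not given in the sources used here. Other data types of the study were not analysed here.

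Counts of the 15 libraries were joined by gene number, and 24191 of 26301 numbers had a symbol. Coordinates came from GENCODE M1 on the assembly of mm9. The 6 libraries of the knockdown set were fitted apart from the 9 of the rescue set, with edgeR 4.0.16 in R 4.3.3 (limma 3.58.1, statmod 1.5.0), with TMM scaling, filterByExpr at a minimum count of 10 (12272 and 12557 genes), robust dispersions and the quasi-likelihood F test. P-values were two-sided and adjusted by Benjamini-Hochberg over all genes tested, with a threshold of 0.05. The method was tested on simulated data before use. Replicates differed by more than sampling noise (chi-square per degree of freedom 2.07 to 5.44 over 15 pairs). Total counts of 11437058 to 25523148 limit the precision of genes near 1 CPM.

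The members and the lists of pathway and marker genes were chosen with earlier results of these data known. Values in every library are given for members called in at least 3 comparisons and for the largest called change of each role in each comparison, for Kdm3a, and as ranges or tests for paralogs. Of each pathway list, up to 3 called genes with the largest change on knockdown and up to 2 in each rescue comparison are named. Ccn2, Srf, Yap1, Vcl, Acta2, Tagln and the other genes described were named after their values were seen, and the level of 50 CPM was also chosen then. A few genes and 1 pathway list are left out of the text. Alternatives were RLE size factors, DESeq2 1.42.0, no filter, at least 10 counts in every library, 1 fit of all libraries, only the groups compared, the legacy method, dispersions that are not robust, a threshold of 0.01, thinning, a replicate block and each library left out.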

Additional observations from a re-analysis of the deposited data

How the results depend on the processing

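No called change of a member or pathway gene reversed its sign under any alternative run. With a threshold of 0.01, the members lower on knockdown were 5, those lower with WT than with LacZ 7 and those lower with Mut than with LacZ 1, and of the pathway genes 4 were lower and 7 higher with Mut than with LacZ. With at least 10 counts in every library, 1 member was higher with WT than with LacZ, since Actn3 was removed. Leaving out 1 library gave 5 to 10 members lower and 28 to 32 higher on knockdown, 8 to 12 lower and 2 to 3 higher with WT than with LacZ, 4 lower and 10 to 15 higher with Mut than with WT, and 0 to 4 lower and 2 to 5 higher with Mut than with LacZ. The pathway genes in that last comparison numbered 5 to 8 lower and 7 to 15 higher. RLE size factors and the legacy method changed no call of a member, and DESeq2 lost 5 calls and gained 1.

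Same-numbered replicates deviated together little, with correlations of -0.0442 to 0.0321 in the knockdown set and -0.0150 to 0.0541 in the rescue set. Differently numbered libraries gave -0.0403 to 0.0645 and -0.0566 to 0.0227. In the rescue set all pairs numbered 1 or 2 lay at 0.0222 to 0.0541, so whether the numbers pair those libraries is not settled. With the replicate block, 0 calls of members were lost and 3 gained, and of the pathway genes 3 calls were lost and 11 gained. Among the gained calls of members were those of Flna and Myh9 for Mut against WT. Calls near 1 CPM, such as those of Itga11, Itga7 and Actn3, rest on few counts.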
